A study of Mus musculus with 9 samples.

Results

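Ribosomal protein genes encode the proteins of the cytosolic ribosome, and their messages were followed across 9 libraries of bulk RNA from the livers of mice with the genotype WT. The genes were found by name: Rpl or Rps followed by a number, with Rpsa, Rplp0, Rplp1 and Rplp2, without names ending in -ps and without the Rps6k kinases. The rule found 85 of the 23337 genes in the count tables, 52 of the large subunit and 33 of the small subunit. In the group called HFD_HDCA, 3 mice ate a 60% high-fat diet (HFD) that held 0.25% hyodeoxycholic acid (HDCA), a bile acid. In the HFD group, 3 mice ate the 60% high-fat diet alone, and in the ND group 3 mice ate a normal diet. Every diet began at 8 weeks of age and lasted 12 weeks, and livers were taken in the fed state. The labels name neither the strain nor the sex.

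The large subunit of a ribosome joins amino acids and releases the growing chain through a tunnel, and the small subunit reads the message. Nearly all of their proteins are made in equal amounts, and unassembled ones are degraded. Many of the messages begin at a C within a short run of C and T bases, the terminal oligopyrimidine (TOP) motif, through which mTOR signalling sets how strongly they are translated.

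Start sequences were available for 64 of the 85 genes, from the RefSeq promoter table of build GRCm38.p6. In 15 of the 64 (23.4%) the annotated start lay inside an unbroken run of at least 8 C or T bases, against 3.82% of 27024 genes with a start in that table. Shown first are 4 of these 15, among them the highest and lowest fold changes of the set in HFD_HDCA against HFD, and then 4 members with a shorter run or none that recur in the results. Each line gives 30 bases before the annotated start and 20 bases from it, on the strand of the gene, with the run that covers the start in capitals.
Rps18, chr17:33955646-33955695, minus strand: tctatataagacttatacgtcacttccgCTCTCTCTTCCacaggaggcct
Rps6, chr4:86857348-86857397, minus strand: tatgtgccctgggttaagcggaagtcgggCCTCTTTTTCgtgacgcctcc
Rpl35, chr2:39005112-39005161, minus strand: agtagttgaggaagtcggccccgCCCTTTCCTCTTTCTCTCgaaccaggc
Rpl28, chr7:4792935-4792984, plus strand: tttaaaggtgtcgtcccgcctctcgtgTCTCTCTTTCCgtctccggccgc
Rps28, chr17:33824543-33824592, minus strand: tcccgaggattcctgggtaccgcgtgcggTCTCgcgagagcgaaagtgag
Rpl4, chr9:64173357-64173406, plus strand: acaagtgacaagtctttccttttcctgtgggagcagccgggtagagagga
Rpl5, chr5:107900498-107900547, plus strand: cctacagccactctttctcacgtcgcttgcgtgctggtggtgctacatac
Rps27l, chr9:66946056-66946105, plus strand: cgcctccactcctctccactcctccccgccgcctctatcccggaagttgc
The run was 11 bases long in Rps18 and Rpl28, 10 in Rps6, 18 in Rpl35 and 4 in Rps28. The annotated start of Rpl4, Rpl5 and Rps27l was a G and lay in no such run. In the 30 bases before the annotated start, the longest run of C and T was 14 bases in Rpl4 and 9 in Rpl5. The start taken here for Rpl5 lay 20 bases inside the outer end of its RefSeq gene, which is the first C of that run of 9. That of Rps27l lay 1462 bases inside. Annotated starts need not be those used in liver. The motif CTTTCC or CTTTTC, searched on both strands within 20 bases of the start and able to overlap the run, was found in 13 of 64 members (20.3%) and in 6.09% of all starts.

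The libraries held between 16994353 and 20509203 reads on genes. A count of 3 reads, the limit that a count of 0 allows, was worth 0.146 to 0.177 CPM (reads on a gene scaled to the library's reads on genes). In these bulk samples, fewer cells of a type and less RNA per cell cannot be told apart. Hepatocyte markers were high in every library, at a summed 94915 to 118631 CPM in HFD_HDCA, 107854 to 124768 CPM in HFD and 87054 to 95895 CPM in ND, 5 of 5 testis markers had no read, and the summed skeletal muscle markers reached at most 0.824 CPM. HFD_HDCA 1 stood apart by Saa1, an acute-phase protein, at 3371 CPM (for single genes, here and below, scaled by the TMM factors of edgeR) against 23.4 and 38.0 CPM in HFD_HDCA 2 and 3. HFD 1 stood apart by Dbp, a clock output gene, at 85.8 CPM against 2.27 and 1.41 CPM in HFD 2 and 3. The summed neutrophil markers, 4 of 5 listed being in the tables, were at 11.0, 2.48 and 1.82 CPM in HFD_HDCA 1, 2 and 3, at 0.536 to 2.77 CPM in HFD and at 1.27 to 1.87 CPM in ND. The summed macrophage and Kupffer cell markers were at 819, 597 and 449 CPM in HFD_HDCA 1, 2 and 3, at 659, 188 and 1125 CPM in HFD 1, 2 and 3 and at 543 to 633 CPM in ND. HFD 2 was the lowest and HFD 3 the highest of all libraries, and the macrophage marker Emr1 was at 6.72 CPM in HFD 2 and 112 CPM in HFD 3.

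In HFD_HDCA against HFD, edgeR called no marker of B cells, of T, NK and NKT cells or of stellate cells. All 5 B cell markers lay above 0, with a median log2 fold change of 0.94, while their sums overlapped, at 58.5 to 82.2 CPM in HFD_HDCA and 51.5 to 90.6 CPM in HFD (93.9 to 122 CPM in ND). The 5 tested of 8 markers of T, NK and NKT cells lay above 0 as well, with a median of 0.40 and sums of 4.96 to 6.01 CPM in HFD_HDCA, 2.78 to 5.14 CPM in HFD and 3.15 to 5.12 CPM in ND. Of 8 stellate cell markers 7 lay below 0, with a median of -0.48 and sums of 299 to 425 CPM in HFD_HDCA, 399 to 440 CPM in HFD and 357 to 398 CPM in ND. Of 8 hepatocyte markers 3 were called lower in HFD_HDCA against ND by edgeR and 0 higher, beside 6.47% of all genes called in either direction. The list was split, with 4 markers rising and 4 falling. Before adjustment, edgeR's p was below 0.05 for 3 of the rising and 3 of the falling markers. The mean of the 8 on the log2 scale, centred over the libraries, was -0.16, -0.13 and -0.19 in HFD_HDCA, 0.04, -0.01 and -0.04 in HFD and 0.17, 0.17 and 0.14 in ND. The part of these cell types and libraries in the results on ribosomal proteins was not tested.

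Levels of different genes were compared by length-scaled values. The median of the tested members was 282 FPKM (fragments scaled by transcript length and library depth). Over all listed genes, which include those too low to test, it was 0.444 FPKM. Of the 80 tested members, 72 averaged above 100 FPKM over the 9 libraries. Large-subunit genes had a median level of 273 FPKM and small-subunit genes 298 FPKM. The highest were Rplp1, an acidic protein of the stalk that recruits elongation factors, at 764 ± 92.7 FPKM, then Rpl38 at 735 ± 145 FPKM and Rpl41, the smallest protein of the family, at 688 ± 174 FPKM (SD, n = 9 libraries). These neighbours in the order did not differ beyond their spread. The lowest tested members were Rps27 at 8.95 ± 9.46 FPKM, Rps15a at 15.1 ± 3.49 FPKM and Rps4y2 at 18.8 ± 3.05 FPKM. The counts of Rps15a were not low, at 177, 95.1 and 138 CPM in HFD_HDCA, 114, 83.8 and 82.3 CPM in HFD and 98.6, 106 and 106 CPM in ND, so its count and FPKM values do not describe the same amount of RNA. Rps4y2 is named Rps4l in RefSeq, where it is a transcribed pseudogene and the only member of 85 that is not protein coding.

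**Figure D1:**
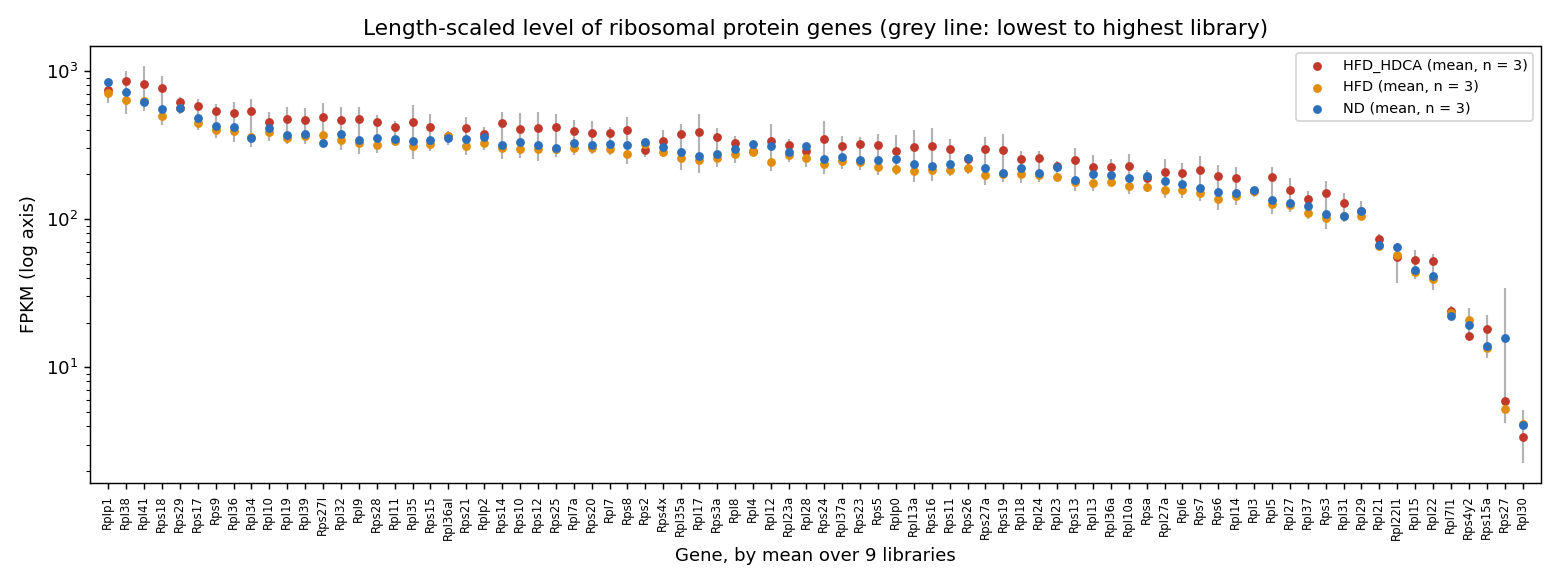
FPKM on a log axis for the members reported here above 1 FPKM, ordered by its mean over 9 libraries. Points are group means of 3 libraries, and grey lines span the lowest to the highest library. Most members lie between 100 FPKM and 764 FPKM, and the HFD_HDCA mean is the highest of the 3 in most of them.

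Not every member was measured. The 5 members too low to test were Rpl10l and Rpl26, with 0 reads in every library, Rpl30 with 0 to 3 reads, Rpl3l with 0 to 1 read and Rpl39l with 1 read in HFD 1. Rpl10l, Rpl39l and Rpl3l are known as testis or muscle forms in mouse. Rpl26 and Rpl30 are ordinary ribosomal proteins, but in the deposited FPKM tables a predicted gene covers nearly the same interval as each of them. Gm15772, over Rpl26, was at 617, 382 and 541 FPKM in HFD_HDCA, 460, 329 and 340 FPKM in HFD and 372, 437 and 387 FPKM in ND. Gm12191, over Rpl30, was at 379, 273 and 339 FPKM in HFD_HDCA, 327, 256 and 255 FPKM in HFD and 287, 308 and 278 FPKM in ND. Both predicted genes had 0 counted reads in every library, so the count tables hold almost no read for either locus.

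Few reads were also counted for Rps27, a zinc-finger protein of the small subunit, and for Rpl34. Rps27 had 14, 9 and 16 reads in HFD_HDCA, 9, 11 and 11 reads in HFD and 12, 13 and 7 reads in ND. Gm9846, which covers the same interval, had no counted read but was at 912, 579 and 870 FPKM in HFD_HDCA, 651, 388 and 400.0 FPKM in HFD and 496, 533 and 488 FPKM in ND. The level of this locus was therefore in the predicted gene's name and not in that of Rps27. Rpl34 had 16, 8 and 11 reads in HFD_HDCA, 8, 7 and 9 reads in HFD and 17, 10 and 17 reads in ND, while its deposited FPKM under its own name was between 309 and 642. Rpl34-ps1, which covers nearly the same interval, had 0 counted reads and 0.0063 to 58.5 FPKM. Its count and FPKM values do not describe the same amount of RNA, and its fold changes from counts rest on under 20 reads a library.

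Ribosomal protein genes took 1.51, 0.999 and 1.35% of the reads on genes in HFD_HDCA 1, 2 and 3, against 1.18, 0.866 and 0.889% in HFD 1, 2 and 3 and 1.12, 1.17 and 1.14% in ND 1, 2 and 3. HFD_HDCA 1 and 3 were the highest of the 9 libraries, HFD 2 and 3 were the lowest, and HFD_HDCA 2 lay among the HFD libraries. The mean share was 1.28 ± 0.260% in HFD_HDCA, 0.980 ± 0.177% in HFD and 1.14 ± 0.0274% in ND (SD, n = 3 each). In the FPKM tables the share was 4.56, 3.36 and 4.37% in HFD_HDCA, 4.10, 3.15 and 3.25% in HFD and 3.56, 3.79 and 3.42% in ND. The order of libraries within HFD_HDCA and within HFD was the same on both scales.

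The balance between the subunits differed little, and in 1 direction. Reads of large-subunit genes over those of small-subunit genes came to 1.33, 1.45 and 1.34 in HFD_HDCA, 1.42, 1.47 and 1.49 in HFD and 1.48, 1.48 and 1.50 in ND. Each HFD_HDCA library lay below each ND library, and HFD_HDCA 2 lay within the HFD libraries. On the FPKM scale the ratio was 1.31, 1.35 and 1.29 in HFD_HDCA, 1.36, 1.39 and 1.41 in HFD and 1.41, 1.39 and 1.41 in ND, with no HFD_HDCA library as high as any other. The lowest ratios thus stood in HFD_HDCA 1 and 3, the libraries with the largest ribosomal protein share. A sum over chosen genes was given no test.

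**Figure D2:**
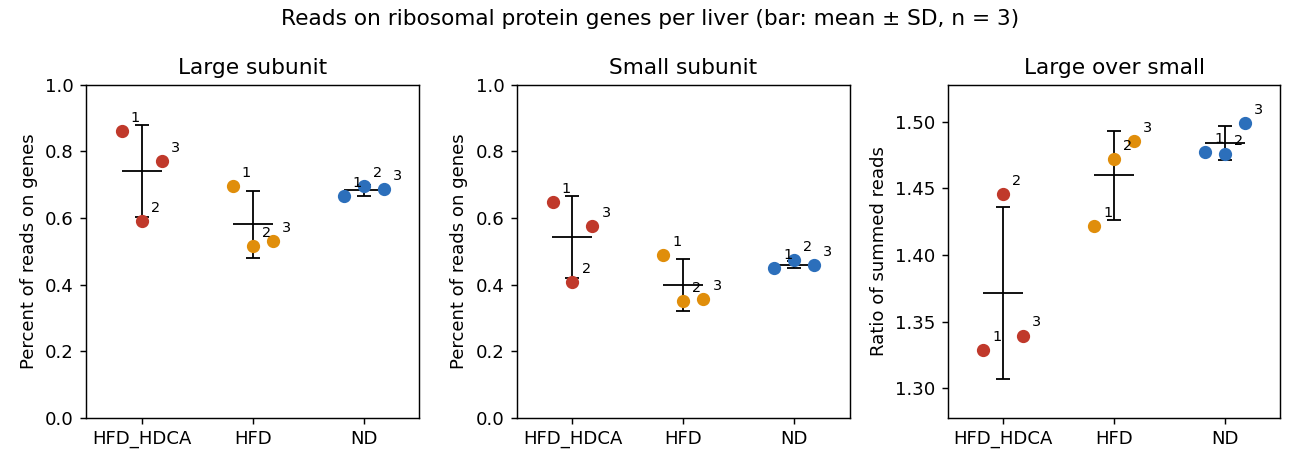
Percent of reads on genes that fell on large-subunit genes (left) and small-subunit genes (middle), and the ratio of large to small (right, axis not from 0), per library. Numbers mark the libraries and bars give the mean ± SD (n = 3). ND points lie close together, while HFD_HDCA 1 and 3 are high in share and low in ratio.

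Reads that align to several places are not counted per gene, and ribosomal protein genes have many processed pseudogenes. Such reads made up 16.0, 14.5 and 15.3% of the HFD_HDCA files, 14.0, 13.3 and 13.5% of the HFD files and 17.7, 16.6 and 19.4% of the ND files. They were most frequent in ND and least frequent in HFD, and within HFD_HDCA and within HFD they ran in the same order as the ribosomal protein share. Reads ambiguous between genes made up 1.23, 1.15 and 1.04% in HFD_HDCA, 0.977, 0.849 and 0.813% in HFD and 1.45, 1.46 and 1.69% in ND. In all, 36 members had part of another annotated gene inside their interval. The part of unassigned reads in the differences between groups was not tested.

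Single members followed the same order of libraries. Of the 80 tested members, 71 were highest in HFD_HDCA 1, a library in which 21.7% of all tested genes had their highest value. The lowest value lay in HFD 3 for 53 members (66.25%), in HFD 2 for 20 (25%) and in HFD_HDCA 2 for 5 (6.25%). Of all tested genes, 12.4%, 12.6% and 8.67% were lowest in those libraries. Within HFD_HDCA, 74 of 80 members (92.5%) ran in the order library 1, then 3, then 2, against 23.3% of all genes. Within HFD, library 1 was highest for 72 of 80 members (90%), against 35.3% of all genes.

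The size of this shared movement differed between groups. The median member had an SD on the log2 CPM scale of 0.37 among the HFD_HDCA libraries, 0.21 among the HFD libraries and 0.058 among the ND libraries. Over all tested genes the median SD was 0.22 in HFD_HDCA, 0.19 in HFD and 0.13 in ND. The members were therefore more variable than the median gene in HFD_HDCA and less variable in ND. They were not compared with genes of similar counts, on which this SD also depends. From HFD_HDCA 1 to HFD_HDCA 2 the difference in log2 CPM was largest in Rpl17 (1.14), Rpl41 (1.12) and Rpl35 (1.08), and smallest in Rpl7l1 (0.14), Rpl4 (0.19) and Rps4y2 (0.22). HFD_HDCA 2 lay below HFD 1 in 73 of 80 members, against 50.3% of all genes, so the groups overlapped in nearly all members.

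**Figure D3:**
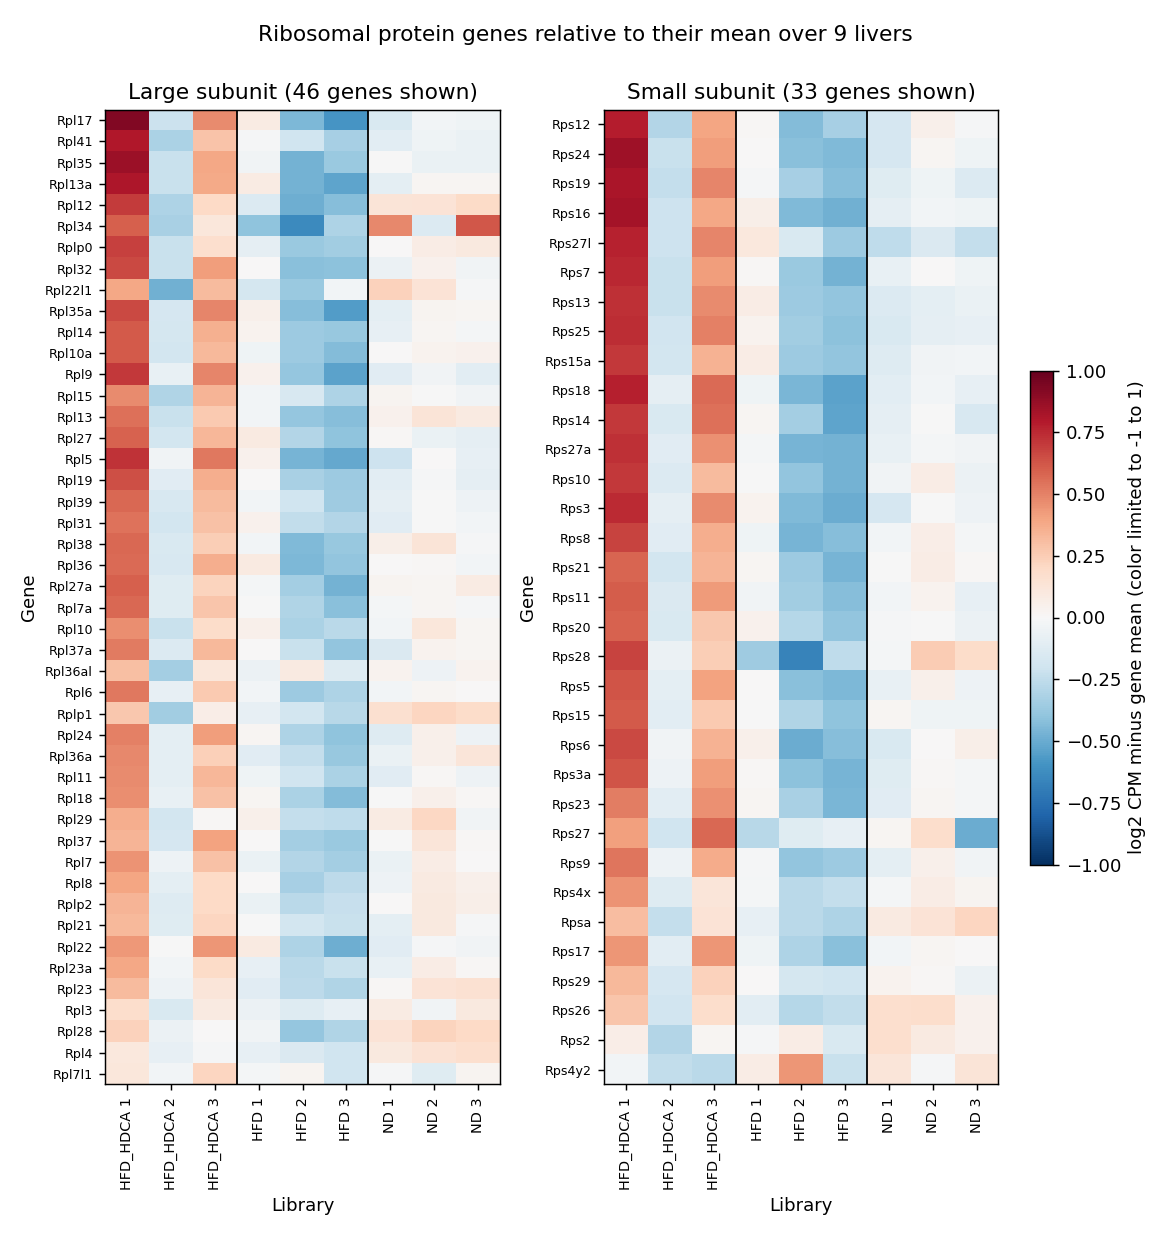
Log2 CPM of the tested members reported here minus each gene's mean over 9 libraries, with columns for libraries and rows for genes of the large (left) and small (right) subunit, ordered by the difference of HFD_HDCA 1 from HFD_HDCA 2. Columns HFD_HDCA 1 and 3 are red and columns HFD 2 and 3 blue for most genes, and the ND columns are near white except for a few genes such as Rpl34 and Rps27.

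The comparison of HFD_HDCA with HFD asks what the bile acid did on the high-fat diet. Ribosomal protein messages lay higher in HFD_HDCA, with a median log2 fold change of 0.52 over the 80 tested members and 0.00 over all 12587 tested genes. The fold change was above 0 for 78 members, against 49.7% of all genes. The median was 0.59 for the 33 small-subunit genes and 0.47 for the 47 tested large-subunit genes. None passed the threshold: edgeR's quasi-likelihood test called 0 of 80 members at an adjusted p under 0.05, against 3.4% of all genes in either direction and 1.67% higher. At an unadjusted p under 0.05, 63 members lay higher (11.6% of all genes) and 0 lower (10.4%). DESeq2 called 23 members higher (4.6% of all genes), and limma on the FPKM values called 0 in either direction (4.23% of all genes). The groups did not overlap in 5 members, Rps28, Rpl7, Rpl36a, Rpl23 and Rpl23a, all higher in HFD_HDCA, and in 11.3% of all genes in that direction.

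The count moved with single libraries. Without HFD_HDCA 2 edgeR called 61 members higher, and without HFD 1 it called 14. Over all genes it called 647 and 672 in these fits, in either direction, against 428 with all libraries. With any other of the 9 libraries left out it called no member. Without both HFD 1 and HFD_HDCA 1, the libraries set apart by Dbp and Saa1, it called 15 members higher and 977 genes in either direction. The members' median was then 0.48.

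Among small-subunit genes the smallest p belonged to Rps28, a protein of the subunit's head near the exit of the message. Rps28 was at 73.5, 44.0 and 54.3 CPM in HFD_HDCA 1, 2 and 3, against 35.9, 28.8 and 38.4 CPM in HFD 1, 2 and 3. Each HFD_HDCA library lay above each HFD library. Its log2 fold change was 0.74 ± 0.18 (SE), with an edgeR adjusted p of 0.0548. Rps18, also of the head, was at 289.7, 159 and 251 CPM in HFD_HDCA, against 164, 123 and 117 CPM in HFD. HFD_HDCA 2 lay just under HFD 1, and the log2 fold change was 0.79 ± 0.21, with an edgeR adjusted p of 0.0643. Rps27a, which is made as a fusion with ubiquitin, was at 239.8, 133 and 199 CPM in HFD_HDCA, against 142, 105 and 104 CPM in HFD. The groups overlapped through HFD_HDCA 2, and the log2 fold change was 0.70 ± 0.20.

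Rps6, the substrate of S6 kinase, was at 196, 121 and 157 CPM in HFD_HDCA, against 128, 87.6 and 92.1 CPM in HFD. HFD_HDCA 2 lay under HFD 1 here too, and the log2 fold change was 0.62 ± 0.19, with an edgeR adjusted p of 0.10. Rps3, which lines the entry of the message channel, had a log2 fold change of 0.70 ± 0.21. Rps14 and Rps19, known from human anaemias of reduced dosage, had 0.68 ± 0.21 and 0.67 ± 0.22. Rps25, needed by some internal ribosome entry sites, had 0.63 ± 0.21. Rps15, Rps20, Rps26 and Rps29 had log2 fold changes of 0.51, 0.47, 0.31 and 0.26.

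A few small-subunit genes stood outside this. Rps2, a protein at the entry of the message channel, was at 276, 215 and 267 CPM in HFD_HDCA, against 261, 277 and 237 CPM in HFD. The groups overlapped fully, and the log2 fold change was -0.03 ± 0.13. Rps4y2 was at 16.7, 14.4 and 14.1 CPM in HFD_HDCA, against 17.9, 23.2 and 14.6 CPM in HFD, and its log2 fold change was -0.30 ± 0.16 with an edgeR adjusted p of 0.303. Rps2 and Rps4y2 were the members below 0 in this comparison. Rpsa, also known as the laminin receptor, had a log2 fold change of 0.30 ± 0.14.

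Among large-subunit genes the smallest p was that of Rpl5, which with Rpl11 binds the small RNA of that subunit and, when free, binds Mdm2. Rpl5 was at 326, 192 and 284 CPM in HFD_HDCA, against 204, 143 and 138 CPM in HFD. HFD_HDCA 2 lay under HFD 1, and the log2 fold change was 0.73 ± 0.20, with an edgeR adjusted p of 0.0809. Rpl11 was at 216, 145 and 196 CPM in HFD_HDCA, against 151, 135 and 125 CPM in HFD, a log2 fold change of 0.44 ± 0.15. Of these partners, Rpl5 thus had the larger difference, and no test between the genes was made. Rpl9, at the base of the stalk region, had 0.68 ± 0.20. Rpl7 was at 360.4, 255 and 325 CPM in HFD_HDCA, against 253, 216 and 209 CPM in HFD, with no overlap and a log2 fold change of 0.47 ± 0.14.

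Rplp0, the base of the stalk, was at 454, 242 and 318 CPM in HFD_HDCA, against 266, 219 and 222 CPM in HFD, a log2 fold change of 0.52 ± 0.20. Its partners Rplp1 and Rplp2 had 0.20 ± 0.15 and 0.33 ± 0.13. Around the catalytic centre and the exit tunnel, Rpl3 had 0.13 ± 0.11, Rpl4 0.15 ± 0.11, Rpl10 0.34 ± 0.17 and Rpl39 0.46 ± 0.17. Rpl4, which reaches into the tunnel, was at 519, 455 and 478 CPM in HFD_HDCA, against 456, 436 and 421 CPM in HFD. Only HFD_HDCA 2 reached into the HFD range, and the whole spread was narrow. On the outer face, Rpl38, needed in the mouse for translation of Hox messages, had 0.52 ± 0.18, and Rpl13a, known for silencing inflammatory messages in human cells, had 0.66 ± 0.24. Rpl24 had 0.52 ± 0.17, Rpl10a 0.56 ± 0.18, Rpl23 0.36 ± 0.12 and Rpl41 0.50 ± 0.23.

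**Figure D4:**
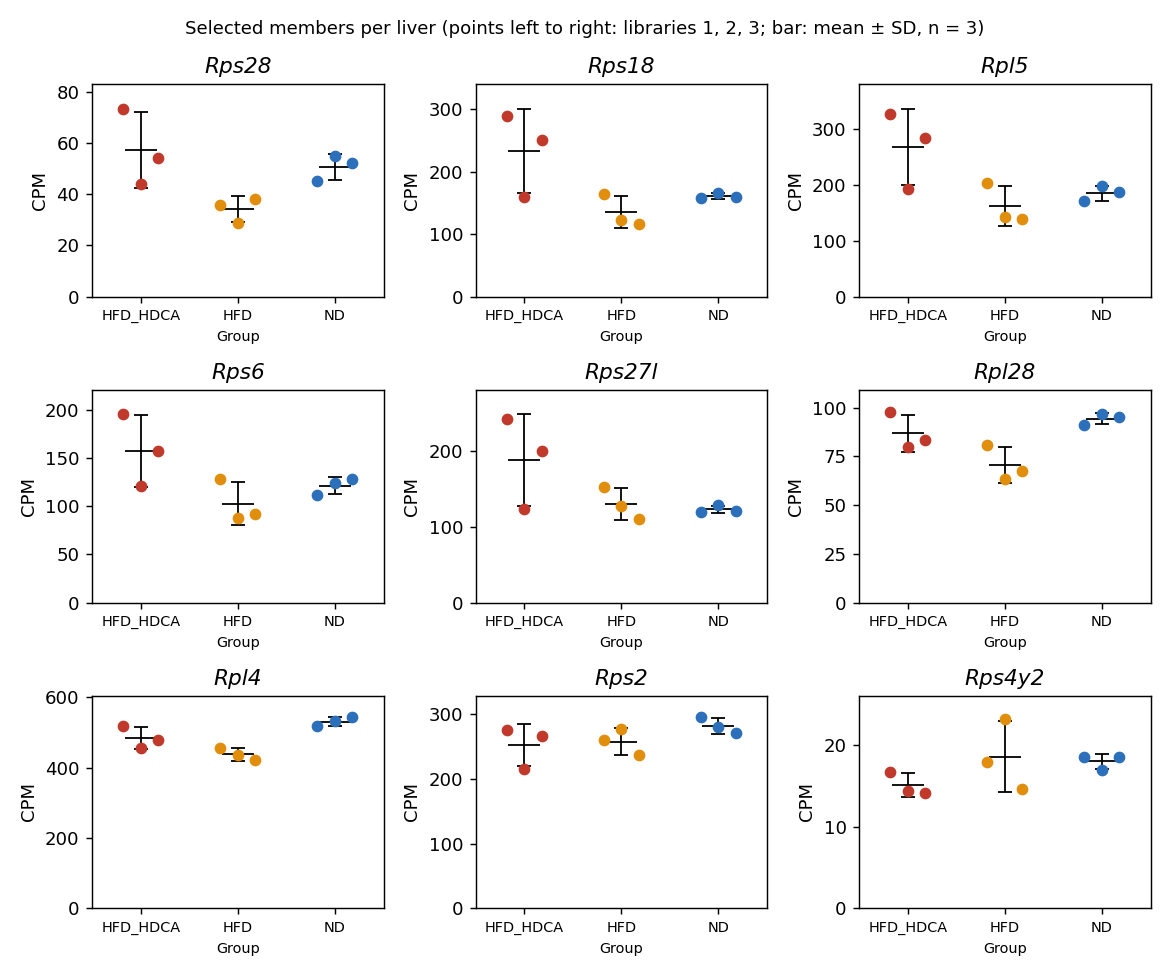
TMM-scaled CPM of 9 members per library, with HFD_HDCA, HFD and ND from left to right, points for libraries 1, 2 and 3 and bars for the mean ± SD (n = 3). Rps28 separates HFD_HDCA from HFD, while in Rps18, Rpl5, Rps6 and Rps27l the HFD_HDCA library 2 lies near the HFD points. Rpl4 and Rps2 vary little, and Rps4y2 is highest in HFD 2.

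HFD_HDCA was also set against ND, which asks how far the treated livers stood from those on the normal diet. Ribosomal protein messages lay higher in HFD_HDCA by a median log2 fold change of 0.29, against 0.03 over all genes, and 70 of 80 members were above 0, against 53% of all genes. The median was 0.36 for small-subunit genes and 0.22 for large-subunit genes. In this comparison edgeR called 0 of 80 members, against 6.47% of all genes in either direction and 3.65% higher. At an unadjusted p under 0.05, 11 members lay higher, 13.8% of those tested, beside 14.8% of all genes, and 0 lay lower (11.4%). DESeq2 called 0 members in either direction (11.1% of all genes), and limma on FPKM called 0 (5.7%). The groups did not overlap in Rpl22, which lay higher (17.8% of all genes), and in Rps4y2, which lay lower (16.1%). Without HFD_HDCA 2, edgeR called 21 members higher, beside 1213 genes in either direction (815 with all libraries). Without HFD_HDCA 1 the members' median was 0.12.

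Rps27l, a paralogue of Rps27 that p53 induces, had the smallest p here. It was at 242, 123 and 199 CPM in HFD_HDCA, against 119, 128 and 120.1 CPM in ND. HFD_HDCA 1 and 3 lay above the ND libraries and HFD_HDCA 2 among them, and the log2 fold change was 0.62 ± 0.22, with an edgeR adjusted p of 0.111. Next came Rpl5 at 0.53 ± 0.20 (edgeR adjusted p = 0.133) and Rps18 at 0.53 ± 0.21 (edgeR adjusted p = 0.137). Rpl22, whose loss impairs T-cell development in mice, was at 151, 112 and 153 CPM in HFD_HDCA, against 104, 111 and 109.7 CPM in ND. Its lowest HFD_HDCA library lay just above its highest ND library, and the log2 fold change was 0.36 ± 0.16. The 10 members below 0 included Rps4y2 at -0.26, Rplp1 at -0.17, Rps2 at -0.16, Rpl4 at -0.13 and Rpl28 at -0.12. Also among them was Rpl34 at -0.20, from under 20 reads a library. The FPKM of Rpl34 lay the other way, at 642, 380 and 592 in HFD_HDCA against 327, 365 and 357 in ND.

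The third comparison, HFD against ND, asks what the high-fat diet itself did. Here ribosomal protein messages lay lower, by a median log2 fold change of -0.22, against 0.02 over all genes. The fold change was below 0 for 78 of 80 members, against 46.7% of all genes. Both subunits had similar medians, -0.23 for large-subunit genes and -0.21 for small-subunit genes. For this contrast edgeR called 0 of 80 members, against 0.953% of all genes in either direction and 0.477% lower. At an unadjusted p under 0.05, 10 members lay lower (4.83% of all genes) and 0 higher (6.67%). DESeq2 called 1 member lower, Rpl4, beside 1.48% of all genes, and limma on FPKM called 0 in either direction (1.45%). The groups did not overlap in 24 members, all lower in HFD, against 9.2% of all genes. The 3 comparisons share their libraries in pairs, so their values are not independent of each other.

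Rpl28, a large-subunit protein, had the smallest p, at 80.8, 63.4 and 67.6 CPM in HFD, against 91.1, 96.6 and 95.2 CPM in ND. Every HFD library lay below every ND library, and the log2 fold change was -0.42 ± 0.12, with an edgeR adjusted p of 0.180. Rps28 was at 35.9, 28.8 and 38.4 CPM in HFD, against 45.2, 54.9 and 52.3 CPM in ND, again with no overlap and a log2 fold change of -0.56 ± 0.18. Rpl4 was at 456, 436 and 421 CPM in HFD, against 517, 532 and 543 CPM in ND. Its libraries did not overlap, the log2 fold change was -0.28 ± 0.11, and the adjusted p was 0.343 by edgeR and 0.0404 by DESeq2. Rpl23 (-0.32), Rps26 (-0.34), Rpsa (-0.36), Rplp1 (-0.36), Rpl12 (-0.50) and Rpl34 (-0.93, from under 20 reads a library) were also among the 10. By FPKM the groups overlapped in Rpl34, at 440, 333 and 309 in HFD against 327, 365 and 357 in ND.

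The members above 0 in HFD were Rps27l at 0.09 ± 0.22 and Rps4y2 at 0.05 ± 0.16. HFD 1 was nearer to ND than HFD 2 and 3 were. With both HFD 1 and HFD_HDCA 1 left out, edgeR called 3 members lower in HFD. The same fit called 576 genes in either direction, against 120 with all libraries. The 3 members included Rpl28 at a log2 fold change of -0.55 and Rpl12 at -0.63, and the members' median was -0.38. With single libraries left out edgeR called no member. On the FPKM scale the members' median was -0.12 in HFD against ND, 0.38 in HFD_HDCA against HFD and 0.26 in HFD_HDCA against ND. On that scale all genes had medians of 0.10, -0.09 and 0.01 in those comparisons, so relative to them the members stood at sizes near those from counts.

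**Figure D5:**
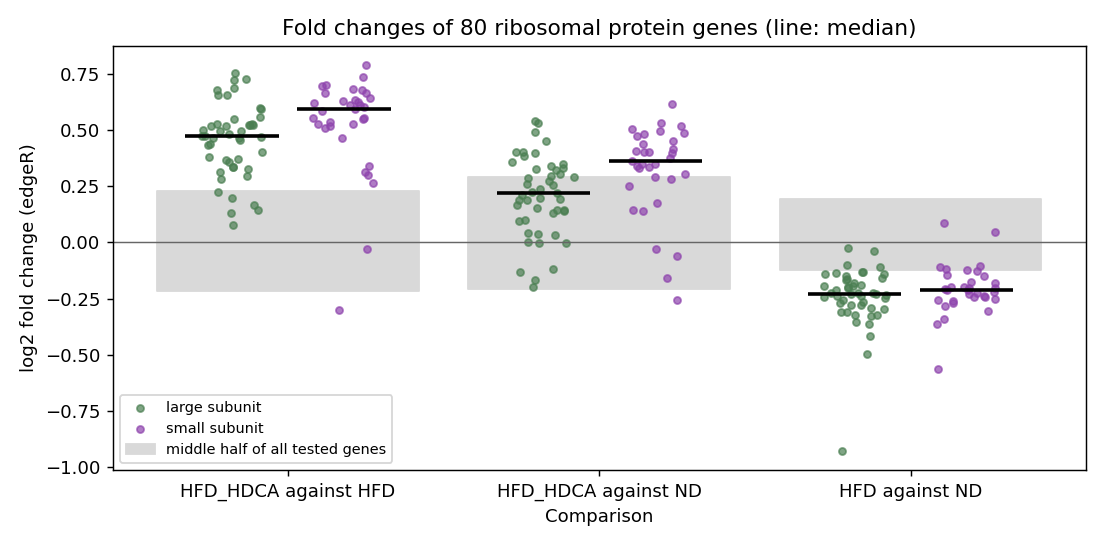
Log2 fold change from edgeR of each of 80 tested members in 3 comparisons, the group named first over the other. Points are genes of the large and small subunit, black lines their medians, and grey boxes span the first to the third quartile of 12587 tested genes. Medians lie at 0.47 and 0.59 in HFD_HDCA against HFD, 0.22 and 0.36 in HFD_HDCA against ND, and -0.23 and -0.21 in HFD against ND.

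Some members have a close paralogue, and the balance within such pairs was read from FPKM. Rpl22l1 over Rpl22 was 1.04 ± 0.187 in HFD_HDCA, 1.50 ± 0.461 in HFD and 1.57 ± 0.173 in ND (SD, n = 3 each). The ratios were 1.19, 0.831 and 1.11 in HFD_HDCA and 1.74, 1.56 and 1.40 in ND, with no overlap, while HFD overlapped with both. Rpl36al over Rpl36a was 1.61 ± 0.0756 in HFD_HDCA, 2.08 ± 0.162 in HFD and 1.78 ± 0.0488 in ND, and no library of a group lay in the range of another. From counts, Rpl36a lay higher in HFD_HDCA than in HFD by 0.47 ± 0.15 on the log2 scale and Rpl36al by 0.08 ± 0.15. Rpl7l1, a protein of ribosome assembly, was at 0.0639, 0.0793 and 0.0687 of the level of Rpl7 in HFD_HDCA, HFD and ND. Reads shared between such copies could have been split or dropped in the authors' counting, so these ratios are uncertain.

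The run of C and T at the annotated start was set against the fold changes. In HFD_HDCA against HFD, the 15 members with a run of at least 8 bases had a median log2 fold change of 0.53, from 0.30 to 0.79. The 45 tested members with a start sequence and no such run had a median of 0.52, from -0.03 to 0.74. Rps18 and Rpl28, with runs of equal length, lay at 0.79 and 0.30, and Rps28 and Rpl4, without a run of 8, at 0.74 and 0.15. The medians differed by far less than the members within each set. The set without a run held Rpl4, Rpl5 and Rps25, with runs of 14, 9 and 14 bases before the annotated start. Because the split rests on annotated starts, it cannot show whether the run matters, which was not tested.

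Genes of the same machinery outside the name rule were read from fixed lists. Fau and Gnb2l1 (Rack1), which also encode ribosomal proteins, lay at 0.60 ± 0.19 and 0.66 ± 0.19 in HFD_HDCA against HFD, and neither was called. Of 16 tested elongation factors and other TOP messages, all lay above 0 in HFD_HDCA against HFD, with a median of 0.53. Of all genes edgeR called 1.67% higher there, and of the 16 it called 1. That gene was Nap1l1, a histone chaperone with a TOP message, at 86.0 ± 3.52 CPM in HFD_HDCA, against 56.3 ± 6.98 CPM in HFD (log2 fold change 0.61 ± 0.12, edgeR adjusted p = 0.0278). Eef1a1, the factor that brings aminoacyl-tRNA, lay at 0.57 ± 0.17, and Eef2, which moves the ribosome along, at 0.39 ± 0.11. In HFD against ND all 16 lay below 0, with a median of -0.16 and none called.

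Lists of genes that make or regulate ribosomes were read in the same way, with no test between lists. Of all genes, edgeR called 3.4% in HFD_HDCA against HFD and 6.47% in HFD_HDCA against ND, in either direction. A single call was not read as a result about its list. The 53 ribosome biogenesis genes had a median of -0.10 in HFD_HDCA against HFD with none called, and against ND 1 fell, the assembly ATPase Mdn1 (-0.78 ± 0.20, edgeR adjusted p = 0.0440). The 24 genes of mTOR, MYC and TOP control had a median of -0.03 with none called in any comparison. The 19 genes of RNA polymerase I and its start factors had a median of 0.05 in HFD_HDCA against HFD, with 13 above 0 and none called. Against ND their median was 0.24 with 14 above 0, the subunit gene Twistnb rose (0.54 ± 0.12) and Polr1a, the largest subunit, fell (-0.65 ± 0.14). Of 32 initiation factors Eif3k alone was called higher in HFD_HDCA against HFD (0.50 ± 0.11, edgeR adjusted p = 0.0327). Their median was 0.07 with 19 above 0, and at an unadjusted p under 0.05 by edgeR 9 lay higher and 2 lower. Against ND, Eif3k was higher (0.45 ± 0.11) and Eif4g3 lower (-0.57 ± 0.12).

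The 76 tested mitochondrial ribosomal protein genes, encoded in the nucleus for a separate ribosome, had a median of 0.16 in HFD_HDCA against HFD and 66 lay above 0. Of the 76, Mrpl17 alone was called, beside 1.67% of all genes called higher. Mrpl17 was at 65.1 ± 7.71 CPM in HFD_HDCA, against 45.4 ± 4.59 CPM in HFD (0.52 ± 0.12, edgeR adjusted p = 0.0426). In HFD_HDCA against ND the 76 had a median of 0.18, with 65 above 0 and 1 called higher (3.65% of all genes). In HFD against ND their median was 0.01, with 46 above 0. Their mean on the log2 scale, centred over the libraries, was 0.23, -0.07 and 0.16 in HFD_HDCA 1, 2 and 3. It was 0.03, 0.004 and -0.18 in HFD and -0.05, -0.09 and -0.05 in ND. Of 15 targets of p53 in ribosomal stress, 12 lay above 0 in HFD_HDCA against HFD, with a median of 0.27, and Sesn2 and Ei24 rose. Against ND the median was 0.41, with 12 above 0 and Sesn2 and Ei24 called higher. Sesn2, a stress-induced inhibitor of mTOR signalling, was at 17.2 ± 2.28 CPM in HFD_HDCA, against 8.99 ± 0.471 CPM in HFD (0.93 ± 0.16, edgeR adjusted p = 0.0140). Ei24 lay at 0.60 ± 0.13 (edgeR adjusted p = 0.0407), while Mdm2 and Cdkn1a were not called, at 0.22 ± 0.12 and 0.34 ± 0.80. In HFD against ND no gene of these lists was called.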

How the data were processed

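RNA from 9 livers was sequenced as TruSeq libraries, per the labels' protocols. The authors deposited for each library a table of read counts per gene, raw and unnormalized by their values, and a Cufflinks table of FPKM, per the file headers. Per the submitters' processing notes, TopHat was version 1.3.2, Cufflinks was version 2.0.2, and the genome build was mm10. The HTSeq version, the annotation and whether counting used strand are not given in the sources used here. The names of the count tables contain "antisense", and what that setting was is not given there either.

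Counts were analysed with edgeR 4.0.16 in R 4.3.3: filterByExpr with a minimum count of 10, which kept 12587 genes, TMM scaling, and the robust quasi-likelihood F test with all 9 libraries and a coefficient per group. The p-values are two-sided and Benjamini-Hochberg adjusted over all genes tested. The 5 classes of reads with no gene were left out. A gene was called at an adjusted p under 0.05, and SE is that implied by the F statistic. An exact permutation test with 3 against 3 libraries cannot go below p = 0.1. Alternatives were DESeq2 1.42.0, limma 3.58.1 on log2(FPKM + 0.5), other scalings and filters, and single libraries left out. The code was tested on simulated counts. Within each group, no pair of libraries matched within counting error. Nothing says more of their origin than that they are separate samples, so p-values measure the spread between these samples. Intervals and floors cover counting error only.

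The members and lists were chosen with earlier results of these data known. Named members are a fixed list of well-known ones, the 3 with the smallest p per direction and comparison, and the highest and lowest by FPKM. Others were named after their values were seen. Of the members, 83 matched RefSeq by symbol and 2 by synonym (Rps3a as Rps3a1, Rps4y2 as Rps4l), and all 85 deposited intervals overlapped the RefSeq gene. A member's values and those of a listed gene are not reported here, and the counts include them.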

Additional observations from a re-analysis of the deposited data

How the results depend on the processing

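The members' median log2 fold change kept its sign in every alternative run. With DESeq2, genes called came to 1076 in HFD_HDCA against HFD, 1398 in HFD_HDCA against ND and 377 in HFD against ND (edgeR 428, 815 and 120), and members called to 23 higher in the first and 1 lower in the last. Without a filter on low counts, 1 member, Rps28, was called higher in HFD_HDCA against HFD. Fitting only the 6 libraries compared gave 134 genes there, and limma on FPKM gave 183 genes in HFD against ND. Without HFD 1 and HFD_HDCA 1, genes came to 977 in HFD_HDCA against HFD with 15 members higher, and to 576 in HFD against ND with 3 members lower and a median of -0.38. The log2 ratio of the ribosomal protein share, HFD against ND, was -0.24 from reads and -0.045 from summed FPKM. The causes were not tested.

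With single libraries left out, HFD_HDCA against HFD gave 127 to 672 genes, 0 to 61 members higher and medians of 0.34 to 0.71. HFD_HDCA against ND gave 196 to 1213 genes, 0 to 21 members higher and medians of 0.12 to 0.47, and HFD against ND gave 32 to 226 genes, 0 members and medians of -0.36 to -0.15. With a pseudocount of 0.1 on FPKM, the median of all genes moved to 0.11 in HFD against ND and -0.11 in HFD_HDCA against HFD.

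Libraries of equal number did not deviate together (correlations from -0.15 to 0.15 over 9 pairs), so the numbers were not taken as pairs. With a replicate block the members' medians were 0.51, 0.27 and -0.24 in HFD_HDCA against HFD, HFD_HDCA against ND and HFD against ND, and 0 members were called.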
